A study of Mus musculus with 40 samples.

Results

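The genes described here are 8 genes of the extracellular matrix and its remodelling that a nylon filter array measured in mouse cell lines, primary cells and tissues. They were chosen by name: every spot whose single gene symbol, in the platform annotation or in its current form, is Col4a1, Lama1, Eln, Serpinh1, Bmp1, Loxl1, Mmp2 or Timp2 was taken, whatever its values. This gave 9 spots of 5760, and 8 genes of the 3284 with a spot of their own, because Lama1 has 2 spots, here called spot 2621 and spot 3143 after their numbers on the array. The rule uses no measured value, but the members were chosen with earlier results of these data known. Their counts beside those of all spots are therefore descriptions. All 9 spots are tested in every comparison, with no filter on low values.

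The matrix is a secreted scaffold: basement membranes of type IV collagen and laminin underlie or surround adipocytes, muscle fibres and vessels, and elastic fibres give a tissue recoil. Collagen chains are folded by chaperones in the endoplasmic reticulum, trimmed outside the cell by proteinases and crosslinked by lysyl oxidases, and metalloproteinases with their tissue inhibitors set how fast the finished matrix is taken apart. Adipocytes and muscle fibres build a basement membrane as they mature, whereas fibroblast-like precursors make interstitial matrix, and macrophages are better known for degrading matrix than for making it.

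The 40 arrays fall into 14 groups. The preadipocyte lines were 3T3-L1, with 2 samples averaged into 1, and 3T3-F442A, Ob1774 and Hgfu, with 1 sample each, all kept at low density. F442A adipocytes (3 samples) were 3T3-F442A cells held with rosiglitazone for the 7 days after confluence, so confluence, drug and differentiation cannot be told apart in them. C3H-10T1/2 (3 samples) is a mesenchymal stem cell line in proliferation. C2C12 was sampled as proliferating myoblasts (3 samples) and as myotubes at day 7 after confluence in HS medium (2 samples). From mice came whole tibialis muscle (2 samples), whole liver (2 samples), adipocytes freed by collagenase from inguinal white adipose tissue, here called tissue adipocytes (3 samples), and stroma-vascular cells of that tissue, of which only the cells adherent 24 h after plating were used (3 samples). Peritoneal macrophages were also plated for 24 h (3 samples), and the macrophage lines were Raw 264 (3 samples) and J774 (2 samples). ZIN40 embryonic stem (ES) cells were grown with LIF (3 samples), the cytokine that holds them undifferentiated, or without it (3 samples). The labels name no genetic change in any group, which does not show that the lines carry none. They give neither the strain, age and sex of the mice nor whether animals were pooled.

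Markers of each tissue were set against the labels, as normalized intensities summed over each list, in units of 1000. The 7 skeletal muscle markers reached 2616 to 2726 in tibialis and 1146 to 1361 in myotubes, against 518 to 612 in myoblasts. The 5 liver markers reached 800 to 2940 in liver, the 5 macrophage markers 814 to 1037 in peritoneal macrophages, 468 to 849 in Raw 264 and 378 to 386 in J774, and the 4 adipocyte markers 423 to 581 in F442A and 379 to 583 in tissue adipocytes, against 224 to 291 in the preadipocyte lines. Elsewhere the liver sum reached at most 459 (tissue adipocytes) and the macrophage sum at most 328 (stroma-vascular cells). Not every listed marker stood out. Mean Ttr was 69.2 in liver and 68.5 in myotubes, and mean Vav1 46.9 in peritoneal macrophages and 51.3 in C3H-10T1/2. Mean Ckm, a muscle marker, was 176.7 in liver and 107 in myotubes. No ES cell marker of the list and no smooth muscle or pericyte marker is among the named spots, so those cells were not checked. No marker is at 0 because background was not subtracted. The 3 arrays of ES cells without LIF stand apart. The 99th percentile of their deposited values lies 60.0 to 391 times above the median, against 3.87 to 17.5 times on the other 37 arrays. Their group enters no test here, but its arrays take part in the normalization and in the fit of all groups.

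Intensities below are in units of 1000 after quantile normalization, which replaces each value by one shared by all arrays at that rank, so 2 spots can show the same value. They can be compared between samples for 1 spot, not between spots. Fold changes are on the log2(intensity + 36.4) scale with their standard error (SE), and come from 1 limma fit of all groups. A spot was called where its p-value, adjusted by Benjamini-Hochberg over all 5760 spots, was under 0.05. Fold changes on this scale understate the change of dim spots. The labels do not say whether replicates other than the preadipocyte lines are separate cultures or mice, so a p-value here weighs only their spread, part of which may be technical. With 4 times the offset the 6 called differences between pairs of groups shrank but stayed called: Col4a1 to 0.59, -0.52 and -0.48 in its 3 comparisons, Eln to 0.52, Timp2 to -1.13 and Bmp1 to -0.35.

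Across 13 groups, without ES cells lacking LIF, 5 of the 9 spots differed in limma's F test, against a background of 10.9% of all spots. They were Col4a1 (adjusted p = 4.96e-07), Timp2 (3.77e-05), Loxl1 (0.0058), Eln (0.0172) and Mmp2 (0.0385). Bmp1 (0.0621), Serpinh1 (0.0751) and the Lama1 spots 2621 (0.239) and 3143 (0.55) did not pass. The distance from the highest to the lowest group mean was 2.13 log2 units for Timp2 and 1.54 for Col4a1, then 1.02 for Eln, 0.90 for Loxl1, 0.74 for Bmp1, 0.70 for Serpinh1 and 0.67 for Mmp2. It was 0.38 and 0.31 for the Lama1 spots, and the median over all spots was 0.41. When arrays were scaled to a common median in place of quantile normalization, 2 spots passed, Timp2 (0.00237) and Col4a1 (0.0184). Without the ES cell arrays lacking LIF, 4 spots passed, all of these but Mmp2. Serpinh1 passed after trend removal (0.00679) and, with Bmp1 (0.0302), under a trended, robust variance model (0.0337). The share of all spots that passed under these other settings was not worked out.

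**Figure D1:**
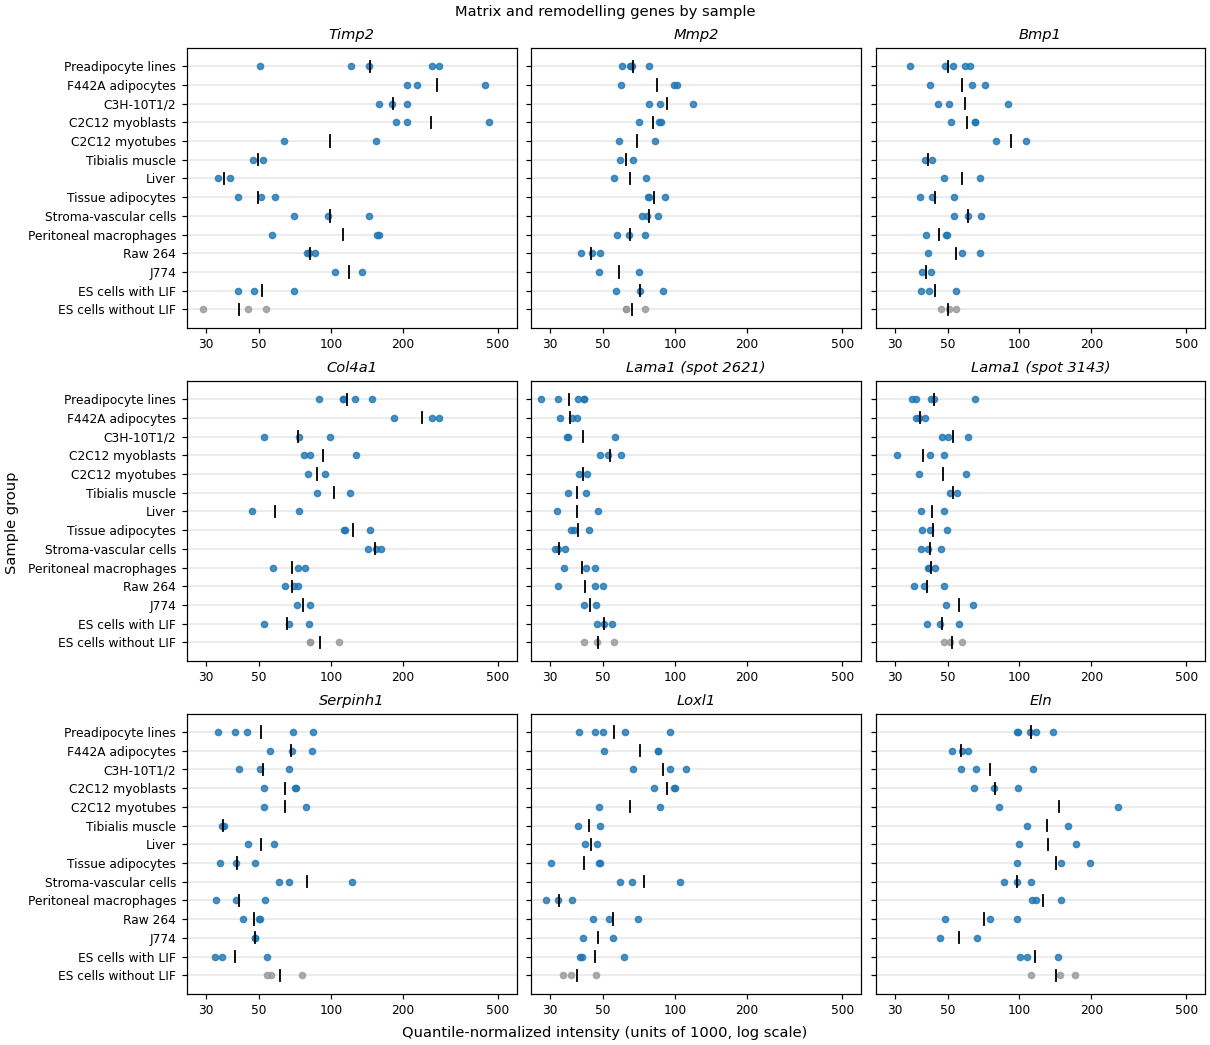
Normalized intensity of the 9 spots (x axis, units of 1000, log scale) in every sample (points) of the 14 groups (y axis), with a bar at each group's geometric mean over the samples shown; ES cells without LIF, which enter no test, are grey. Timp2 reaches 459 in a myoblast sample and 33.6 in a liver sample, Col4a1 stands highest in F442A adipocytes, and the points of both Lama1 spots lie close together.

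Col4a1, which encodes a chain of the type IV collagen network of basement membranes, was highest in the cultured adipocytes. Its intensities in the 3 F442A samples were 184, 284 and 266. In the preadipocyte lines they were 149 and 127 in the 2 samples of 3T3-L1, 112 in 3T3-F442A, 89.2 in Ob1774 and 113 in Hgfu. Every F442A adipocyte sample lay above every preadipocyte sample. Col4a1 was 0.90 ± 0.15 log2 units higher in F442A adipocytes (adjusted p = 0.00117, limma), and was the 1 member spot of 9 called, against 0.156% of all spots called in that comparison. It was called without each of 8 samples in turn, and the fold against the single 3T3-F442A sample was the same size, 0.90 ± 0.23, but not called (0.0619).

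The call was kept under 6 of 9 other settings and lost, besides with that baseline, under 2 other treatments of the arrays. Scaled to the median, the difference stayed at 0.90 but with an adjusted p of 0.161, and with each array's 5th percentile subtracted it was 1.37 (0.26). Of the 4 adipocyte markers, 1 was called higher in F442A adipocytes. Mean Lpl was 95.4 in the preadipocyte lines and 309 in F442A adipocytes and mean Retn 41.2 and 42.8, so most of the rise in their sum was Lpl. The part of adipocyte content in the result was not tested. In bulk samples like these, fewer cells of a type and less RNA per cell cannot be told apart.

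In the adipocytes taken from tissue, Col4a1 was lower than in the cultured ones. Its values were 114, 146 and 115, below the lowest F442A sample of 184. The difference was -0.79 ± 0.16 (adjusted p = 0.00572, limma). It was not called without F442A replicate 2 (-0.69, 0.061) or without tissue adipocyte replicate 1 (-0.73, 0.0522), nor after median scaling (-0.61, 0.177) or 5th percentile subtraction (-1.16, 0.155).

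Stroma-vascular cells had the second highest mean of Col4a1, with 163, 154 and 144 in the 3 samples. Peritoneal macrophages had 57.5, 77.8 and 73.0, and the groups did not overlap. Col4a1 was 0.85 ± 0.16 lower in the macrophages (-0.85, adjusted p = 0.00353, limma), the 1 member spot called where 0.451% of all spots were. This call was lost without macrophage replicate 1 (-0.76, 0.0543), after median scaling (-0.95, 0.32) and after 5th percentile subtraction (-1.69, 0.212). The 2 endothelial markers, Cdh5 and Eng, summed to 111 to 151 in stroma-vascular cells and to 75.7 to 114 in the macrophages; endothelial cells also make type IV collagen, and their part in the result was not tested.

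Elsewhere Col4a1 differences were not called. Raw 264 had 72.9, 70.3 and 64.2, and J774 had 72.2 and 81.8, all below the lowest preadipocyte sample of 89.2; the difference of the macrophage lines from the preadipocyte lines was -0.44 ± 0.13 (adjusted p = 0.122, limma). C3H-10T1/2, with 99.6, 73.9 and 52.3, overlapped the preadipocyte lines (-0.43 ± 0.15, adjusted p = 0.38, limma), and so did the stroma-vascular cells (0.35 ± 0.15, adjusted p = 0.566, limma). Liver had the lowest mean, with 73.7 and 46.6 against 120.1 and 87.9 in tibialis (-0.55 ± 0.20, adjusted p = 0.158, limma). The myoblasts (82.0, 127 and 77.5) and myotubes (94.9 and 80.05) overlapped, as did ES cells with LIF (66.6, 81.2 and 52.6) and C3H-10T1/2. In order of group means, F442A adipocytes were the only group whose samples did not overlap those of the next group down.

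Lama1 encodes a laminin alpha chain best known from early embryonic basement membranes. Both of its spots were dim, and neither passed the F test. At spot 2621 the 3 myoblast samples read 52.5, 48.3 and 59.3, above all preadipocyte samples, which ran from 27.5 to 41.6. The difference, 0.29 ± 0.10, was the most significant of any member in that comparison but was not called (adjusted p = 0.301, limma). At spot 3143 the same myoblast samples read 48.3, 42.0 and 30.7, inside the preadipocyte range of 35.4 to 65.2. The means of the 2 spots over 13 groups had a Pearson correlation of 0.12, so the spots do not give 1 order of the groups. ES cells with LIF read 54.5, 50.4 and 47.1 at spot 2621, the second highest group mean there. At spot 3143 they read 40.9, 46.3 and 56.0, and their mean was at rank 5 of 13 groups. Neither spot was called between these ES cells and C3H-10T1/2.

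Eln encodes elastin, the core protein of elastic fibres. It ran opposite to Col4a1 between the 2 kinds of adipocyte. Its intensities were 197, 149 and 97.3 in tissue adipocytes and 57.6, 52.1 and 61.1 in F442A adipocytes, with no overlap. Eln was 0.94 ± 0.23 higher in tissue adipocytes (adjusted p = 0.0249, limma). The call was kept in only 2 of 6 fits that left a sample out; the difference was 0.75 (0.16) without tissue adipocyte replicate 1, and median scaling gave 0.97 (0.121). Subtracting each array's 5th percentile gave 2.05 (0.0394).

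The 3 F442A samples of Eln also lay below all preadipocyte samples, which ran from 97.7 to 139, but that difference was not called among all groups. With only the groups compared in the fit it was -0.65 ± 0.11 (adjusted p = 0.0451, limma). In myotubes the 2 samples disagreed, with 259 in replicate 1 and 81.9 in replicate 2, while the myoblasts had 78.6, 64.4 and 98.6. With both samples the difference was 0.69 ± 0.26 (adjusted p = 0.334, limma). Leaving out replicate 2 gave 1.34 ± 0.27 (adjusted p = 0.00776, limma) and leaving out replicate 1 gave 0.03 ± 0.28 (adjusted p = 1, limma), each resting on 1 myotube sample assumed to vary like the other groups. The array table's row before Eln, which has no gene name, is very bright, at 211 to 565 on the 37 arrays. Over those arrays its correlation with Eln was 0.55, where the median of 5759 pairs of adjacent rows was 0.40. Its own difference between tissue and F442A adipocytes was 0.31 ± 0.21 (adjusted p = 0.433, limma). Among the other members, the row before Loxl1 (Ppp1r14b) had a correlation of 0.66 with it. No source used here gives the physical layout of the filter.

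Serpinh1 encodes a chaperone of the endoplasmic reticulum that binds folding procollagen. It had its highest mean in stroma-vascular cells, at 123, 60.5 and 66.8, and lay below those values in tissue adipocytes, at 34.4, 40.3 and 47.97. The groups did not overlap, and the difference of 0.60 ± 0.17 was the most significant of the members there but was not called (adjusted p = 0.112, limma). It was called after the slow trend along the array table was removed from each array (0.49 ± 0.12, adjusted p = 0.0352, limma), a setting chosen after seeing the data. Without stroma-vascular replicate 1, the sample at 123, the difference was 0.38 (adjusted p = 0.541, limma), and with 5th percentile subtraction it was 2.37 (adjusted p = 0.224, limma). The unnamed row before Serpinh1 in the array table, whose correlation with it over 37 arrays was 0.53, moved the same way in this comparison (1.10 ± 0.18, adjusted p = 0.000896, limma). That row was also lower in macrophages than in stroma-vascular cells (-0.79 ± 0.18, adjusted p = 0.0343, limma), and its part in the Serpinh1 values was not tested. Serpinh1 itself did not overlap there, and its difference of -0.58 ± 0.17 was not called (adjusted p = 0.221, limma). After trend removal that difference was called (-0.65 ± 0.12, adjusted p = 0.00227, limma). Tibialis was lowest, with 35.1 and 35.9. Among the preadipocyte lines Serpinh1 ran from 33.7 and 39.9 in 3T3-L1 through 44.7 in 3T3-F442A and 69.7 in Ob1774 to 84.1 in Hgfu.

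Bmp1 encodes the proteinase that removes the C-terminal propeptide of fibrillar procollagens and also activates lysyl oxidases. It was highest in myotubes, at 106 and 79.95, and in tibialis it was 42.9 and 40.3. Bmp1 was 0.72 lower in the muscle (-0.72 ± 0.17, adjusted p = 0.0307, limma), the 1 member spot called against 0.92% of all spots. With 2 samples a group this call was fragile. Of the 4 fits that left a sample out, each with 1 sample in a group, only that without myotube replicate 2 kept it (-0.86). The difference was -0.58 without myotube replicate 1, -0.75 without tibialis replicate 1 and -0.72 without tibialis replicate 2. The call was kept under 5 of 9 other settings, which include a replicate block though these groups were not taken as paired. With only the groups compared in the fit it was lost. It was also lost after median scaling (-0.51, 1), 5th percentile subtraction (-2.44, 0.157) and trend removal (-0.60, 0.0739).

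Of the 7 muscle markers, 3 were called higher and 1 lower in tibialis than in myotubes. Their sum was higher in tibialis, but Tnnc1, a troponin C of slow fibres, had a mean of 319.8 in myotubes and 69.0 in tibialis. The part of muscle fibre content in the Bmp1 difference was not tested. Between tibialis and myotubes the rows before and after Bmp1 in the array table differed by -0.17 ± 0.13 and -0.39 ± 0.12 (adjusted p = 0.814 and 0.142, limma). Their part in the Bmp1 values was not tested either. Myoblasts gave Bmp1 values of 65.3, 64.9 and 51.7, below both myotube samples, and that difference was not called.

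Loxl1 encodes a lysyl oxidase-like enzyme that crosslinks elastin. It passed the F test, with its highest mean in myoblasts (81.3, 98.7 and 99.4) and its lowest in peritoneal macrophages (37.1, 32.3 and 28.9). C3H-10T1/2 came next to the myoblasts with 111, 95.1 and 66.5. Stroma-vascular cells had 59.0, 66.3 and 105, above the 30.3, 48.4 and 48.2 of tissue adipocytes. That last pair of groups showed same-numbered samples deviating together over all spots. The Loxl1 difference of 0.51 was not called in the fit of all groups (adjusted p = 0.293, limma) or in a fit of these 2 groups alone (0.51 ± 0.16, adjusted p = 0.171, limma). With the replicate number added to the latter as a block it was called (0.51 ± 0.10, adjusted p = 0.0293, limma). Against the macrophages, stroma-vascular cells did not overlap in Loxl1 either, and that difference of -0.69 was not called (adjusted p = 0.098, limma), except under a trended, robust variance model (0.0418, limma) and after trend removal (-0.67, 0.0213).

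Mmp2 encodes gelatinase A, a metalloproteinase that degrades type IV collagen and denatured collagens. Its group means spanned 0.67 log2 units. C3H-10T1/2 was highest, with 77.4, 86.3 and 118, and Raw 264 lowest, with 44.9, 40.5 and 48.7, so those 2 groups did not overlap. The preadipocyte lines lay between 59.9 and 77.5, the stroma-vascular cells between 73.0 and 84.5, and the tissue adipocytes between 76.9 and 90.4. Mmp2 was called in none of the 12 pairwise comparisons. Its call in the F test was lost under median scaling (0.222), with 4 times the offset (0.0536), under the trended, robust variance model (0.0641) and without the ES cell arrays lacking LIF (0.0519).

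Timp2 encodes a tissue inhibitor of metalloproteinases that, besides blocking them, takes part in activating the Mmp2 proenzyme at the cell surface. It had the widest spread of group means of all members, and its promoter is therefore shown. The 250 bases before its start site in RefSeq (build GRCm38.p6, chr11:118355412-118355661, minus strand) read, 5′ to 3′ and with motif matches in capitals:

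Timp2: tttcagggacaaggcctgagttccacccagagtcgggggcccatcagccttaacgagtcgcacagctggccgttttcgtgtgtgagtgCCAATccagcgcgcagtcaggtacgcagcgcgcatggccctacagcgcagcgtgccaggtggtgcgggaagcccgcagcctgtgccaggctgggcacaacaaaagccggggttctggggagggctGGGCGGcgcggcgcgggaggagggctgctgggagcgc

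The first capitals are a CCAAT box, which begins 162 bases before the start, and the second a GC box, GGGCGG, which begins 37 bases before it. Both strands were searched, and each motif occurred once; a TATA box (TATAAA) and an AP-1 site (TGANTCA) were not found in these letters. Of 32851 mouse promoter windows of the same length, 33.8% hold CCAAT, 32.7% GGGCGG, 12.4% TATAAA and 6.75% TGANTCA. The window is 68% G and C, where the median window has 52.4%. Such matches describe the letters, not bound sites. RefSeq windows were at hand for 3 of the 8 genes.

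Timp2 was high in F442A adipocytes, myoblasts and C3H-10T1/2 and low in liver, tibialis and tissue adipocytes. Its intensities were 230.0, 444 and 209 in F442A adipocytes, 208, 459 and 188 in myoblasts, and 159.9, 209 and 181 in C3H-10T1/2. Liver had 37.8 and 33.6, tibialis 47.4 and 51.8, and tissue adipocytes 51.1, 58.3 and 40.7. Low values were not limited to tissues, since ES cells with LIF and 1 sample of 3T3-L1 also lay at 40.8 to 70.3 and 50.4. In the preadipocyte lines Timp2 was 122 and 50.4 in the 2 samples of 3T3-L1, 144 in 3T3-F442A, 266 in Ob1774 and 284 in Hgfu. The 2 samples of 3T3-L1 thus lay far apart, and no Timp2 difference from these lines was called.

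Between the 2 kinds of adipocyte Timp2 gave the largest difference of any member. It was 1.87 lower in tissue adipocytes (-1.87 ± 0.32, adjusted p = 0.000736, limma). This was 1 of 3 member spots called, with Col4a1 and Eln, where 2.47% of all spots were. Timp2 was called without each of the 6 samples in turn (-2.06 to -1.57) and under all 9 other settings tried (-3.74 to -1.13). The other 2 were not. In this comparison 5 of the 9 spots did not overlap between groups, and over all spots 28.2% did not. The summed adipocyte markers overlapped between these groups (379 to 583 and 423 to 581), but 1 marker was called higher in tissue adipocytes and 1 lower. Mean Retn was 117 in tissue and 42.8 in F442A adipocytes, and mean Lpl 179 and 309. The 5 macrophage markers summed to 290 to 316 in tissue adipocytes and 224 to 317 in F442A adipocytes, and the erythroid marker Hbb-b1 was at 71.0 to 100.2 and 41.4 to 48.2. The part of blood in the tissue preparation was not tested. Between the 2 kinds of adipocyte the rows before and after Timp2 in the array table differed by -0.16 ± 0.15 and -0.57 ± 0.18 (adjusted p = 0.601 and 0.0761, limma). Their part in the Timp2 values was not tested.

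The stroma-vascular cells had 70.1, 97.6 and 145 of Timp2, above the adipocytes of the same kind of tissue, but the difference was not called. Myotubes had 63.6 and 154, below the lowest myoblast sample of 188. That difference, -1.12 ± 0.35, was not called (adjusted p = 0.239, limma). It was -1.58 ± 0.43 without myotube replicate 2 and then called (adjusted p = 0.0404, limma), but -0.66 without myotube replicate 1, where 1 sample again stands for the myotubes. Leaving out myoblast replicate 2 gave -0.77 (adjusted p = 0.555, limma) and median scaling -0.66 (adjusted p = 1, limma). Fitting myotubes and myoblasts alone with the replicate block gave a call at -1.33 (adjusted p = 0.0489, limma). These groups were not taken as paired, and their same-numbered samples had correlations of 0.11 and 0.06. The myoblast sample at 188 has no same-numbered myotube sample, so it carries no weight in the difference of -1.33. ES cells with LIF had 40.8, 70.3 and 47.6, far below C3H-10T1/2. The difference was -1.31 ± 0.32 and was not called (adjusted p = 0.0895, limma). It was called when only these 2 groups were fitted (-1.31 ± 0.15, adjusted p = 0.0078, limma), also with the replicate number added as a block (-1.31 ± 0.08, adjusted p = 0.00123, limma). These were the only 2 calls among 9 other settings, and 0 of 6 fits that left a sample out made the call. Among the macrophages, the peritoneal samples had 156, 56.9 and 159, J774 had 104 and 135, and Raw 264 had 80.9, 86.0 and 79.6, so that the first group's range held both others.

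**Figure D2:**
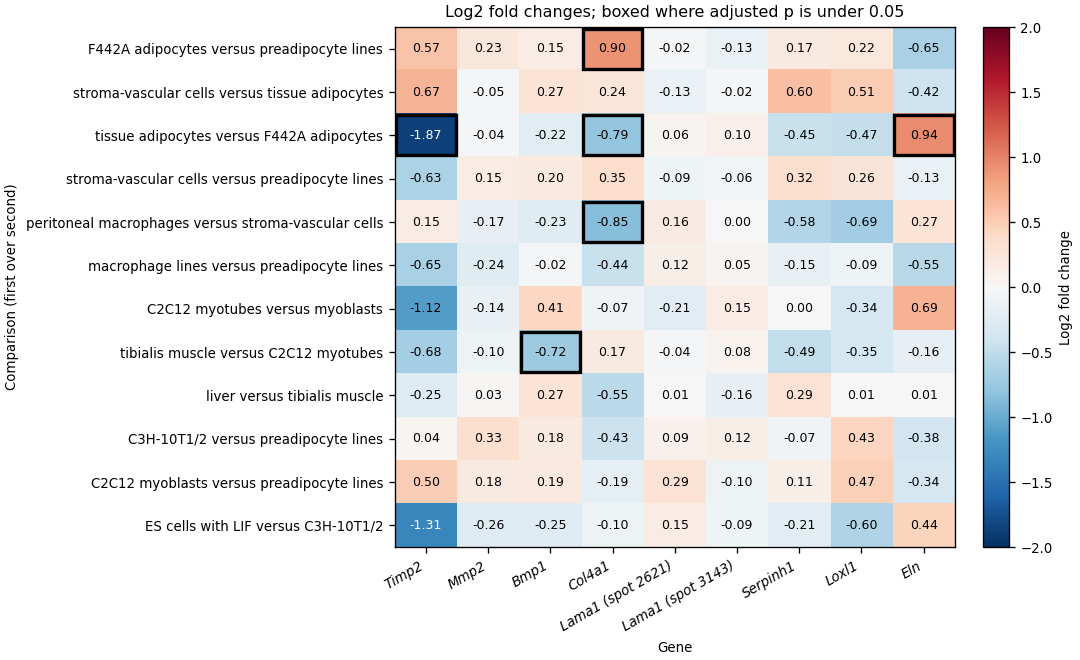
Log2 fold changes of the 9 spots (x axis) in 12 comparisons (y axis, first group over second; colour from -2 to 2), boxed where limma's adjusted p was under 0.05. The 6 boxes are Col4a1 in 3 comparisons, Timp2 and Eln in tissue against F442A adipocytes, and Bmp1 in tibialis against myotubes.

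In the other comparisons limma called no member spot. Of all spots, 0.625% were called between stroma-vascular cells and tissue adipocytes, 0.191% between stroma-vascular cells and the preadipocyte lines and 0.521% between the macrophage and preadipocyte lines. The share was 0.226% between myotubes and myoblasts and 1.88% between liver and tibialis. It was 0.0174% between C3H-10T1/2 and the preadipocyte lines, 0.191% between myoblasts and the preadipocyte lines and 0.208% between ES cells with LIF and C3H-10T1/2. At an unadjusted p under 0.05 the member spots numbered, in the same order, 3, 3, 4, 3, 1, 3, 2 and 2 of 9. Of all spots, 9.01%, 8.02%, 12.4%, 9.97%, 15.1%, 8.72%, 9.22% and 4.13% were under that p.

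The 2 courses of differentiation were also compared, in a test added after seeing the data. Col4a1 rose by 0.90 in F442A cells against the preadipocyte lines and had a difference of -0.07 in C2C12 cells, which was 0.09 without myoblast replicate 2. The gap between those effects was 0.97 ± 0.23 and was not called (adjusted p = 0.0643, limma). For Eln it was -1.34 ± 0.34 (adjusted p = 0.0962, limma) and for Timp2 1.69 ± 0.46 (adjusted p = 0.145, limma). No member spot passed, where 0.26% of all spots did; 4 of 9 had an unadjusted p under 0.05, and 10.2% of all spots.

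The group means of several members ran in parallel. Over the 13 groups Serpinh1 and Loxl1 had a Pearson correlation of 0.74, Timp2 and Loxl1 0.69 and Serpinh1 and Bmp1 0.68, whereas Eln and Timp2 had -0.64. These values describe 13 means that share arrays and normalization, and no test was made of them.

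**Figure D3:**
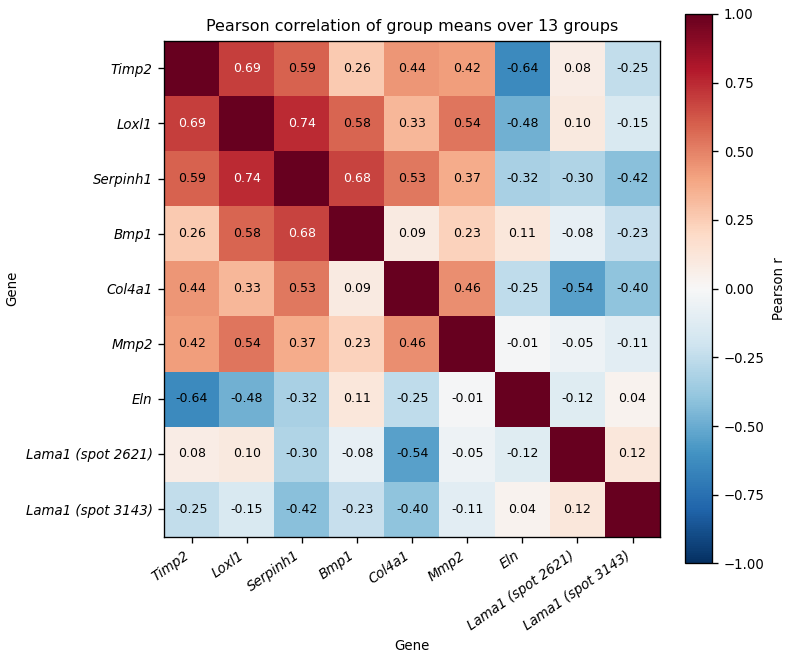
Pearson correlation of log2 group means over 13 groups for each pair of the 9 spots (both axes; colour from -1 to 1). Serpinh1, Loxl1, Timp2 and Bmp1 are positively related to one another (0.26 to 0.74), and Col4a1 and Mmp2 are also positive with each of these (0.09 to 0.54). Eln is negative with Timp2 (-0.64), and the Lama1 spots have 0.12 with each other.

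Of the 3283 other named genes, those most like each member across the 13 group means were found by the same measure. For Serpinh1 they were Bcar1 (0.91), which encodes an adaptor of focal adhesions, Fst (0.86) and Vgll3 (0.81). For Loxl1 they were Vgll3 (0.86), Mprip (0.84) and Ndufb11 (0.84), so Vgll3 stood among the nearest 3 of both. For Timp2 they were Spcs1 (0.90), a subunit of the signal peptidase, Crtap (0.87), which takes part in collagen prolyl hydroxylation, and Myl12a (0.84), and for Mmp2 they were Runx1 (0.84), Eif5a2 (0.81) and Pcyt1a (0.81). Col4a1 was most like Tax1bp1 (0.82), Nfat5 (0.78) and Ltc4s (0.77), the last of which is the row before it in the array table. Eln was most like Itprip (0.91), 9630013A20Rik (0.89) and Ap3m1 (0.86), and Bmp1 most like D17Ertd663e (0.91), Scgb3a1 (0.88) and Homer1 (0.86). The Lama1 spots had no gene in common among their nearest 3, which were Timeless (0.77), Abl1 (0.71) and Rbbp4 (0.71) for spot 2621 and Bclaf1 (0.82), Usp5 (0.80) and 6330549H03Rik (0.80) for spot 3143. Each value here is among the highest of 3283 over 13 means, so it describes likeness only, and no test was made. Even the Lama1 spots, which did not pass the F test, reached 0.77 and 0.82.

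Other matrix genes were taken from a list of 140, of which 14 have a spot of their own: Adam10, Adamts4, Agrn, Col11a1, Col18a1, Lamc3, Ltbp1, Mmp16, Mmp24, P4ha1, Spock1, Tgfbi, Thbs4 and Tnc. Of these, 2 were called in any comparison. Tnc, which encodes the glycoprotein tenascin C of remodelling connective tissue, was 82.1 to 100.04 in stroma-vascular cells and 48.8 to 58.9 in tissue adipocytes (0.46 ± 0.11, adjusted p = 0.0429, limma). It was 34.2 to 36.2 in liver and 65.5 to 75.5 in tibialis (-0.58 ± 0.14, adjusted p = 0.0155, limma). Ltbp1, a matrix protein that holds latent TGF-beta, was 54.3 to 72.3 in ES cells with LIF and 112 to 149 in C3H-10T1/2 (-0.72 ± 0.15, adjusted p = 0.0278, limma). None of the 14 was called between the 2 kinds of adipocyte, where 3 of the 9 member spots were. The median difference there was -0.01 for the 14 genes, -0.22 for the member spots and 0.01 for all spots. Members and list were chosen with earlier results known, so this contrast is a description only.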

How the data were processed

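RNA labelled with 33P was hybridized to Resgen nylon filters, and spots were quantified with Imagene, per the labels' protocols. The deposited values are linear spot intensities, which the authors gave for 5760 spots in 40 samples; no source used here gives the software version, a scaling or a background correction. The lowest intensity on 37 arrays was 7675. Array medians ran from 941 to 132228, and the number of arrays limits the precision. Of the spots, 3420 carry 1 gene symbol, 98 several and 2242 none, and 3346 were given a current symbol from RefSeq (GRCm38.p6).

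Arrays were quantile-normalized, an offset of 36370 (the 10th percentile of normalized values) was added and log2 was taken. The proliferating C2C12 samples, whose source name calls them preadipocytes, were grouped by title. All 14 groups were fitted together in limma 3.58.1 (R 4.3.3; 25 residual degrees of freedom, two-sided). The code was tested on simulated data.

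All 8 members are named. Fold changes are printed where a member was called or had the smallest p of a comparison, and otherwise only where an alternative made a call; other matrix genes are named where called. The members, lists and tests were chosen with earlier results of these data known.

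Same-numbered samples deviated together over all spots in stroma-vascular cells and tissue adipocytes (correlations 0.26, 0.10 and 0.39) and in ES cells with LIF and C3H-10T1/2 (0.39, 0.64 and 0.62). Both pairs of groups were taken as paired from the data, not from the labels, and only in fits with a replicate block. The main fit held no block, so its results are unpaired. The lowest of these correlations, 0.10, was matched in tibialis and myotubes (0.10), which were not taken as paired.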

Additional observations from a re-analysis of the deposited data

How the results depend on the processing

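The counts of member spots called were recomputed under other settings, as were the 14 fold changes that were called or had the smallest p of a comparison, none of which reversed. Scaling to the array median gave 0 calls for F442A adipocytes against preadipocyte lines, 1 for tissue against F442A adipocytes, 0 for peritoneal macrophages against stroma-vascular cells, 0 for tibialis against myotubes and 2 across 13 groups. Subtracting each array's 5th percentile gave 0 for the first, the third and the fourth of these. A trended, robust variance model gave 2 for macrophages against stroma-vascular cells. Fitting only the groups compared gave 2 for F442A adipocytes against preadipocyte lines, 0 for tibialis against myotubes and 1 for ES cells with LIF against C3H-10T1/2. Adding the replicate block to that fit gave 1 for stroma-vascular cells against tissue adipocytes, 5 for tissue against F442A adipocytes, 1 for myotubes against myoblasts, 2 for tibialis against myotubes and 1 for ES cells against C3H-10T1/2; only the first and last of these pairs of groups were taken as paired. In myotubes against myoblasts the block gave no weight to the myoblast sample that has no same-numbered myotube sample. In liver and tibialis same-numbered samples had a correlation of -0.11, and the crossed replicate block gave 0. Some settings were added after seeing the data. Removing the local trend gave 1 for stroma-vascular cells against tissue adipocytes, 3 for macrophages against stroma-vascular cells and 0 for tibialis against myotubes, and taking the single 3T3-F442A sample as baseline gave 0. Leaving out each sample in turn gave 1 to 3 for tissue against F442A adipocytes, 0 to 1 for macrophages against stroma-vascular cells, 0 to 1 for tibialis against myotubes and 0 to 2 for myotubes against myoblasts. The cause of these changes was not tested. The share of all spots called was worked out for the main fit only, so these counts have no background beside them. The other comparisons kept their count of calls within 1.5 times under every setting run. Without background subtraction, spots near the dim end of the array, among them both Lama1 spots, show compressed differences.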

Other observations

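ES cells grown without LIF, whose deposited values are of another kind, entered no test. After quantile normalization their 3 samples gave, in units of 1000, 53.6, 45.1 and 29.1 for Timp2, 171, 148 and 112 for Eln, 108, 81.5 and 82.1 for Col4a1, and 76.0, 56.2 and 54.3 for Serpinh1. The ES cells with LIF gave 145, 100.4 and 107 for Eln and 35.1, 54.2 and 32.7 for Serpinh1.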
